A study of Homo sapiens with 25 samples.

Results

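RAB GTPase mRNAs were taken as the protein-coding genes whose symbol is RAB, a number and at most one letter from A to D, which gave 63 of 20044 protein-coding genes. Their levels were read from all 25 count files of a RIP-seq series, in which an RNA-binding protein is pulled out of a cell lysate and the RNA that comes with it is sequenced. The protein pulled down was IGF2BP1 fused to mCherry, expressed from a lentivirus in HCT116 colon carcinoma cells. All mCherry lines were labelled as IGF2BP2 KO, IGF2BP3 KO and Tet-OsTIR1-PURO, and each was a population sorted in a narrow mCherry gate, not a clone. The lines carried wild-type IGF2BP1 or a mutant, namely S181E or Y396E, in which glutamate stands in for a phosphorylated residue of a disordered linker, or RQ, in which arginines of the RGG motif in the first linker were changed to glutamine. Each line was collected after PBS (control) or after 500 µM sodium arsenite, an oxidative stressor, for 2 h. There were 3 libraries per line and treatment, except 2 for RQ in arsenite, from dishes that were plated and grown independently. Parental HCT116 cells without the fusion gave 1 library for each treatment, which served as the background of the beads. Input RNA-seq is not part of these data as analysed here. A level below is the level in the pull-down, and a change in the amount of an mRNA in the cell cannot be told apart from a change in the share that was bound.

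RAB proteins are small GTPases that give the membranes of the secretory and endocytic pathways their identity. In the GDP-bound form they are kept in the cytosol by GDI proteins, exchange factors (GEFs) load them with GTP on a particular membrane, GTPase-activating proteins (GAPs) switch them off, and the active form recruits effectors such as tethers and motors. IGF2BP1 binds mRNAs through KH domains and is found in stress granules after arsenite.

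The 23 mCherry libraries held between 22246381 and 60273548 counts, and protein-coding genes took 60.1 to 66.6% of them in control and 68.7 to 76.6% in arsenite. The parental libraries held 1238013 counts in control and 18942497 in arsenite. Levels are given in CPM, protein-coding counts scaled to a common library size with TMM factors (CPM as edgeR defines it). The mRNA of the bait, IGF2BP1, lay between 37.2 and 123 CPM in the mCherry libraries and had no count in either parental library. Its mean was 66.4 CPM in wild-type, 66.3 in S181E, 93.0 in Y396E and 111 in RQ in control, and 40.1, 41.4, 52.1 and 80.6 CPM in arsenite, so the bait mRNA moves with both treatment and line. Reads on IGF2BP2 (131 to 294 CPM) and IGF2BP3 (147 to 429 CPM) remained in the lines labelled as knockouts. All 8 epithelial marker mRNAs checked exceeded 1 CPM, with a summed level of 902 to 1713 CPM in control and 2023 to 2862 CPM in arsenite libraries. None of 5 leukocyte markers exceeded 1 CPM in any mCherry library. Of 5 fibroblast markers 1 did, COL1A1, in all 23 libraries (1.58 to 13.4 CPM), and of 3 endothelial markers 1 did, PECAM1, in 1 library (1.42 CPM). The protein-coding share, the epithelial markers and the bait mRNA differ with the treatment, and the bait mRNA also with the mutant; their part in the results below was not tested.

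The RNA element by which IGF2BP1 was first characterised, the zipcode of beta-actin mRNA, has a bipartite form that its KH domains contact. It was searched as CGGAC, then any 10 to 15 bases, then ACA, on the sense strand of one GENCODE v44 transcript per gene. The element was in 2 of the 37 RAB mRNAs that could be tested (5.41%) against 10.2% of all 8734 genes tested, where the median transcript was longer (3682 against 3308 bases). Both RAB matches are shown because they are the only ones in the family, with the fixed bases in capitals.
RAB11B, coding sequence in exon 5 of 5, chr19:8403512-8403532 of hg38, plus strand: CGGACggacagaagcccaACA
RAB5C, 3′ UTR in exon 6 of 6, chr17:42125378-42125400 of hg38, minus strand: CGGACccagcaagagcatccACA
A match of these letters is a description and not a binding site. RAB7A and RAB2A held no match in the transcript searched.

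Of the 63 RAB mRNAs, 37 passed the filter of 10 CPM, which at least 11.5 of 23 mCherry libraries had to exceed, and were tested (58.7%, against 43.6% of all protein-coding genes). Among the tested members, 32 exceeded 10 CPM in all 23 libraries. RAB27B and RAB40B exceeded it in fewer than 6 libraries of arsenite, so these 2 passed through their control libraries, and a lower arsenite level is part of how they came to be tested. The 26 members not tested were RAB13, RAB15, RAB17, RAB19, RAB20, RAB24, RAB27A, RAB30, RAB33B, RAB43 and RAB9A, which had low counts, and 15 members whose count was at most 30 in every mCherry library. Those 15 were RAB32, RAB33A, RAB34, RAB39A, RAB39B, RAB3C, RAB40A, RAB41, RAB42, RAB44, RAB4B, RAB6C, RAB6D, RAB7B and RAB9B. RAB32, RAB3C and RAB41 had no count in any of the 23 libraries. Of the members not tested, only RAB13, RAB15 and RAB30 exceeded 10 CPM in any mCherry library.

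Together the 63 genes held from 0.385 to 0.524% of all protein-coding counts in an mCherry library. In wild-type libraries the share was 0.406 ± 0.022% (SD, n = 3) in control and 0.515 ± 0.011% (SD, n = 3) in arsenite. RAB7A alone accounted for the higher share in arsenite, since without it the family took 0.369 ± 0.017% (SD, n = 3) in control and 0.325 ± 0.011% (SD, n = 3) in arsenite. In the parental libraries the share was 0.273% in control (95% Wilson interval 0.261 to 0.285%) and 0.246% in arsenite (0.243 to 0.248%), below every mCherry library. These intervals, and the limits given below for counts of 0, cover only the error of counting, since reads copied by PCR do not stand for separate molecules.

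**Figure D1:**
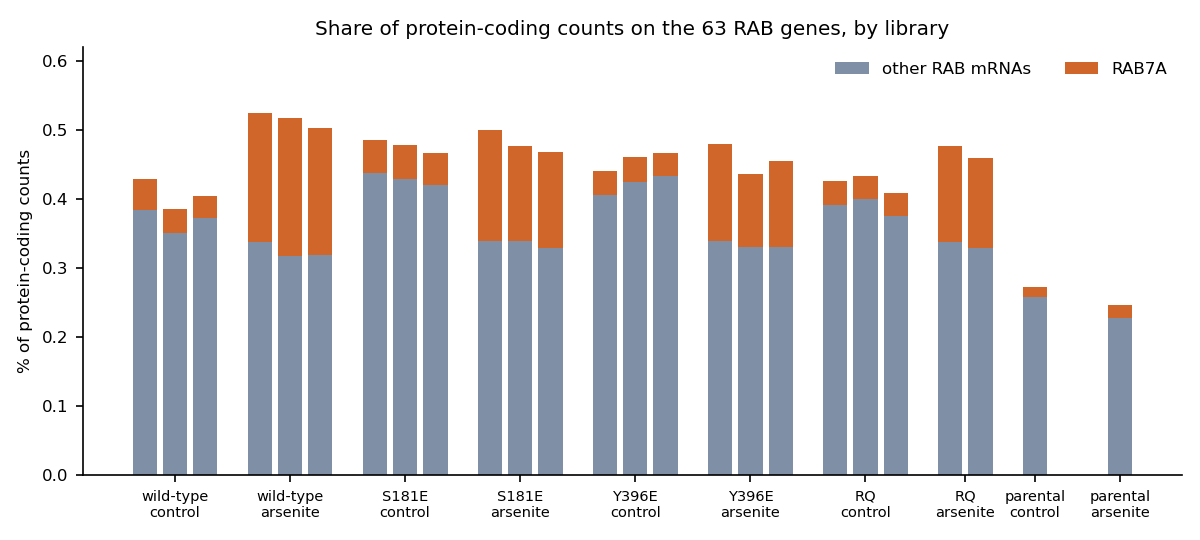
Share of protein-coding counts (%) on the 63 RAB genes in each of the 25 libraries, 1 bar per library, grouped by line and treatment, with RAB7A in orange and all other members in grey-blue. The orange part is larger in every arsenite mCherry library than in any control mCherry library, while the grey-blue part is smaller, and both parental bars are below all others.

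Per kilobase of exon, the highest RAB levels in wild-type control libraries were those of RAB1B (345 CPM per kb), which acts in transport from the ER to the Golgi, and RAB8A (239 CPM per kb), which acts in exocytosis and in cilium formation. RAB25, a RAB11 relative of epithelial cells, followed at 115 CPM per kb. RAB6A, a Golgi RAB, had 88.2 CPM per kb, RAB5C, an early endosomal RAB, 79.3 CPM per kb, and RAB7A, the RAB of late endosomes and lysosomes, 79.2 CPM per kb. The last 3 lie within their spread of each other. In arsenite RAB7A ranked first at 397 CPM per kb, next to RAB1B at 388 CPM per kb. Reads from RAB6A that also match its retrocopies RAB6C and RAB6D may have been left uncounted, so its level is uncertain. Annotated pseudogenes of RAB1A, RAB5C, RAB11A and RAB28 held at most 0.172% as many counts as their parent gene.

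**Figure D2:**
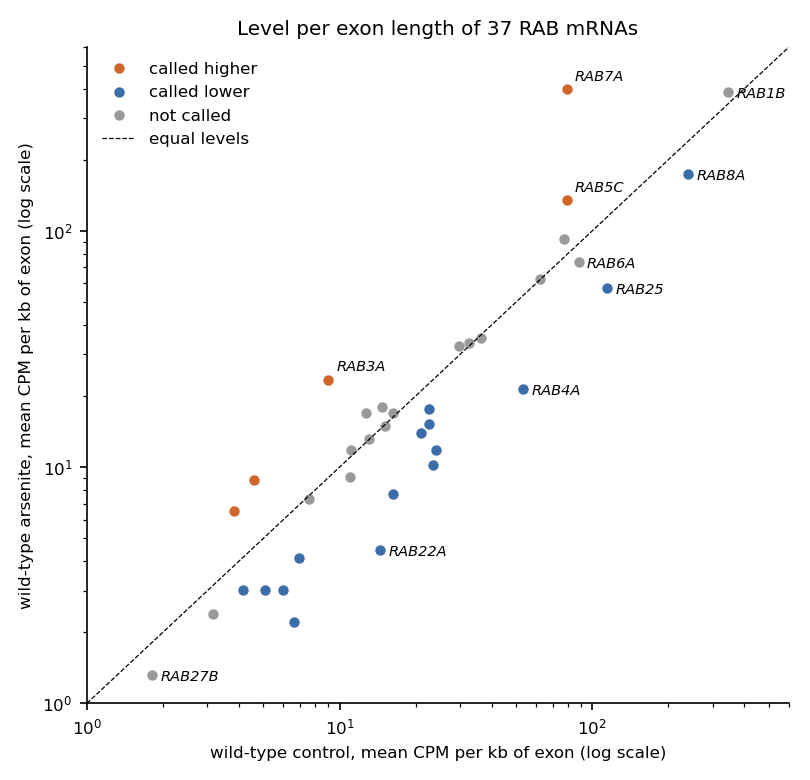
Mean level of the 37 tested RAB mRNAs in wild-type libraries (n = 3 each), control on the x axis and arsenite on the y axis, both in CPM per kb of exon on log scales, coloured by call (orange higher, blue lower, grey neither). Points on the dashed line have equal levels, RAB7A stands 5.01 times above its control level, and RAB22A and RAB4A lie well below the line.

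Parental libraries give the background of the beads. In the control parental library 14 of the 37 tested RAB mRNAs had no count, as did 40.9% of all genes tested. A count of 0 there allows up to 2.02 CPM by the error of counting alone, so the true background may be higher. RAB3C had 34 counts in that library and none in any mCherry library. RAB1A had no count there but 51.5 CPM in the arsenite parental library. In the arsenite parental library, which was deeper, only RAB27B had none, which allows up to 0.130 CPM. In wild-type control libraries 22 of the 37 were at least 4-fold over the parental library of the same treatment, where 49% of all genes tested were. The 14 members with no parental count are among the 22, since a parental count of 0 meets this threshold at any level. In wild-type arsenite libraries 5 were, namely RAB1B (5.62-fold), RAB5C (4.62-fold), RAB7A (17.4-fold), RAB27B (at least 71.1-fold) and RAB37 (7.53-fold), where 9.18% of all genes tested were. When the arsenite parental library was taken for both treatments, 6 of the 37 were 4-fold over background in wild-type control. With 1 parental library per treatment these ratios have no replicate check. RAB2A, RAB12, RAB26, RAB31 and RAB40C were at or below the parental level in wild-type control (0.162- to 0.983-fold).

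Arsenite was compared with control in the wild-type line first. Among the 37 tested RAB mRNAs 15 fell (40.5%) and 5 rose (13.5%), while of all genes tested 31.8% were called lower and 35.4% higher. The 15 include RAB40B, which passed the filter through its control libraries. A call needs an adjusted p under 0.05 (quasi-likelihood test of edgeR, adjusted by Benjamini-Hochberg over all genes tested) and a change of more than 20%. The median log2 fold change of the RAB mRNAs was -0.27, and that of all genes was 0.03. DESeq2 called 16 lower and 5 higher. The members are taken below by the site where their protein acts, in groups of 4 to 8, and each group's count is a description to be read beside the 31.8% and 35.4% of all genes.

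RAB7A, which drives fusion of late endosomes and autophagosomes with lysosomes, rose most. The gene (ENSG00000075785.14) lies at chr3:128693669-128825942 of hg38 on the plus strand. Its level was 506, 391 and 393 CPM in the wild-type control libraries and 2106, 2270.4 and 2093 CPM in the wild-type arsenite libraries. Every arsenite library was thus far above every control library, a log2 fold change of 2.31 (SE 0.11, edgeR adjusted p = 9.85e-14) or 4.97-fold. The parental libraries held 74.9 CPM in control and 124 CPM in arsenite, so the level over background went from 5.74-fold to 17.4-fold. The same separation was seen in the mutant lines. S181E had 486, 489 and 498 CPM in control and 1659.9, 1363 and 1418 CPM in arsenite, and Y396E had 329, 323 and 329 CPM against 1319, 1016 and 1201 CPM. RQ had 381, 349.9 and 386 CPM in control and 1496 and 1401 CPM in arsenite.

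Of the 4 late endosomal and lysosomal RABs tested RAB7A was the one called, and RAB12, RAB29 and RAB38 were not.

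Early endosomal RABs moved in both directions, with 4 of 7 lower and 1 higher. RAB22A, which acts in early endosomal sorting and recycling, fell most of all members. It went from 122, 123 and 131 CPM in control to 40.5, 39.8 and 35.5 CPM in arsenite, a log2 fold change of -1.71 (SE 0.11, edgeR adjusted p = 1.22e-11). The groups lay far apart, and the parental library also held less in arsenite (23.4 CPM) than in control (74.9 CPM). Over the parental library wild-type RAB22A was at 1.67-fold in control and 1.65-fold in arsenite. RAB4A, which serves rapid recycling from early endosomes, fell from 144, 156 and 183 CPM to 70.2, 66.3 and 59.0 CPM (log2 fold change -1.32, SE 0.14). RAB31, a close relative of RAB22A, fell from 85.2, 95.2 and 94.3 CPM to 42.8, 39.4 and 37.8 CPM (log2 fold change -1.20, SE 0.15), but was no higher than the parental library in control (93.1 CPM). RAB21, which acts in integrin endocytosis, was also called lower (log2 fold change -0.75, SE 0.10). The 3 RAB5 mRNAs, whose proteins act at the early endosome, lay on the other side of 0. RAB5C rose from 137, 140 and 177 CPM to 267, 247 and 260 CPM, without overlap (log2 fold change 0.76, SE 0.10, edgeR adjusted p = 3.76e-07). RAB5A had 33.3, 42.5 and 35.8 CPM in control and 50.7, 40.6 and 45.0 CPM in arsenite, and RAB5B had 170, 122 and 184 CPM and 173, 171 and 178 CPM. Both overlapped between treatments and were not called.

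Of the 8 RABs of recycling and transport to the plasma membrane 4 were called lower and none higher. RAB25 fell from 149, 128 and 102 CPM to 66.3, 66.4 and 56.7 CPM (log2 fold change -1.01, SE 0.16). The parental library also held less RAB25 in arsenite (31.9 CPM) than in control (72.9 CPM). Wild-type was thus 1.73-fold over it in control and 1.98-fold in arsenite. The other 3 were RAB8B, RAB11A and RAB8A, with log2 fold changes between -0.76 and -0.47. Of these, RAB11A was near or below the parental library in wild-type, at 1.19-fold in control and 0.77-fold in arsenite. RAB8B and RAB8A act in exocytosis, and RAB11A marks the recycling endosome. RAB10, RAB14, RAB35 and RAB11B were not called. RAB10 had 215, 199 and 250 CPM in control and 226, 224 and 216 CPM in arsenite.

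Of the 7 ER and Golgi RABs 2 were lower and none was higher. RAB18, known from lipid droplets and the ER, fell from 71.4, 86.3 and 87.1 CPM to 37.8, 37.7 and 40.4 CPM (log2 fold change -1.09, SE 0.12). RAB2A, which acts between the ER and the Golgi, was called lower by less (log2 fold change -0.37, SE 0.10). RAB1B, the most abundant member in control, had 740, 663 and 613 CPM in control and 764, 778 and 726 CPM in arsenite and was not called.

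The secretory RABs split evenly, with 2 of 6 higher and 2 lower. RAB3A, a RAB of synaptic vesicles and other regulated secretion, rose from 15.6, 11.9 and 13.1 CPM to 35.0, 35.0 and 35.1 CPM (log2 fold change 1.36, SE 0.24, edgeR adjusted p = 2.3e-05). The parental library held no RAB3A count in control but 14.1 CPM in arsenite, where wild-type was 2.48-fold over it. RAB37 rose from 31.4, 15.2 and 15.0 CPM to 40.8, 41.3 and 36.1 CPM (log2 fold change 0.91, SE 0.21), with the first control library well above the other two. RAB3B, a paralog of RAB3A, fell from 299, 256 and 370 CPM to 154, 133 and 168 CPM (log2 fold change -1.04, SE 0.19). RAB3D was called lower too (log2 fold change -0.60, SE 0.18), although its second control library, at 56.4 CPM, lay below all 3 arsenite libraries (58.7 to 64.9 CPM). That call was lost without wild-type control replicate 3 (log2 fold change -0.35). Among these subfamily members RAB3A thus rose while RAB3B and RAB3D fell, and RAB3C had no count in any mCherry library.

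In the remaining group, of cilia and other roles, 3 of 5 were lower and 1 was higher. RAB40B, which belongs to the RAB40 proteins that carry a SOCS box, went from 25.8, 29.3 and 29.8 CPM to 10.7, 9.68 and 8.07 CPM (log2 fold change -1.58, SE 0.18). RAB40B exceeded 10 CPM in 12 control but only 3 arsenite libraries, so its lower level in arsenite is part of how it came to be tested. In wild-type arsenite it was below the parental library (0.69-fold). Its relative RAB40C went from 12.6, 15.2 and 25.9 CPM to 9.61, 9.29 and 8.30 CPM (log2 fold change -0.98, SE 0.24), and was below the parental level in both treatments (76.3 and 20.6 CPM). RAB23, a negative regulator of Hedgehog signalling that is linked to cilia, rose from 24.6, 17.2 and 14.5 CPM to 33.0, 32.2 and 31.4 CPM (log2 fold change 0.75, SE 0.16). The parental library held no RAB23 count in control but 16.6 CPM in arsenite, where wild-type was 1.94-fold over it. RAB36 was called lower (log2 fold change -0.47, SE 0.17), a call that was lost without wild-type control replicate 3 (-0.36) or wild-type arsenite replicate 2 (-0.33).

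**Figure D3:**
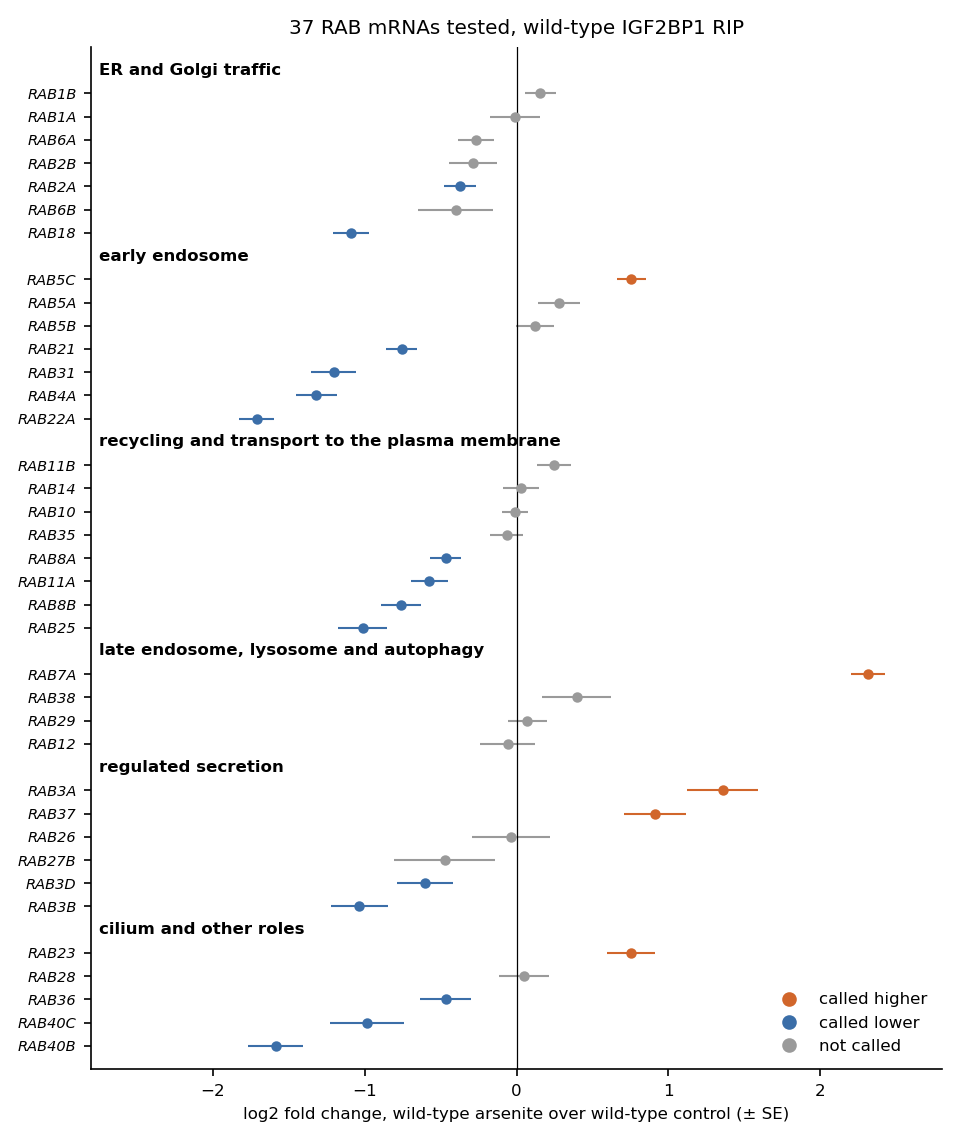
Log2 fold change of wild-type arsenite over wild-type control RIP (x axis, with SE from the edgeR fit) for the 37 tested RAB mRNAs, grouped by the site where their protein acts. Orange points were called higher (5), blue points lower (15) and grey points neither; RAB7A is at 2.31 and RAB22A at -1.71.

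Of these 20 calls 17 held under every alternative tried, and the exceptions were RAB2A, RAB3D and RAB36. Under background scaling, with factors from genes no higher than in the parental libraries, 20 were lower and 5 higher, with the median of all genes moved to -0.26 and that of the RAB mRNAs to -0.57, so that the RAB median stayed below that of all genes.

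Exon length and base content of the RAB genes were set against the arsenite difference as a description. Across the 37 genes, which are not independent replicates, Spearman's rho with exon length was -0.37, where over all 8734 genes tested it was -0.06. With the GC share of the exons it was 0.30 over the RAB genes and 0.12 over all genes. Median exon length was 4484 bases in the 5 higher members, 4384 in the 15 lower and 2869 in the 17 not called. The medians of the higher and lower members lay close together, and a part of length in the calls was not tested. The median GC share was 55.8% in the higher members, 42.6% in the lower and 45.4% in those not called. The GC ranges overlapped, at 38.2 to 60.0% for higher and 34.9 to 65.3% for lower members, and RAB7A had 48.4%.

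The mRNAs of proteins that act on RABs were called in both directions. Of 144 listed partners 111 were tested, and 31 were lower and 36 higher in arsenite (median log2 fold change 0.07). These are 27.9% and 32.4%, near the 31.8% and 35.4% of all genes tested, so the counts of the partner groups below are a description and set no group apart. In the membrane cycle 2 of 7 were lower and 2 higher. CHML, a RAB escort protein, went from 31.9 ± 13.3 CPM to 13.3 ± 0.50 CPM (SD, n = 3 each, log2 fold change -1.26), whereas GDI2, which keeps RABs in the cytosol, went from 85.4 ± 5.69 CPM to 212 ± 22.0 CPM (SD, n = 3 each, log2 fold change 1.30). Among GEFs 11 of 35 were lower and 10 higher, with TRAPPC6B lowest (log2 fold change -1.03) and TRAPPC11 highest (1.63), both of them subunits of TRAPP complexes. Among GAPs 9 of 32 were lower and 11 higher, from TBC1D16 (log2 fold change -1.52) to RAB3GAP2 (1.10), which is listed here although its complex with RAB3GAP1 is also known as a GEF of RAB18. Among effectors 9 of 37 were lower and 13 higher, from RAB11FIP2 (log2 fold change -1.10), a RAB11 effector, to KIF20A (1.92), a mitotic kinesin that binds RAB6. Among other small GTPases, 7 of 17 tested in the ARF family were lower and 3 higher (median -0.19), with ARF4, which acts in Golgi transport, highest (log2 fold change 1.09).

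**Figure D4:**
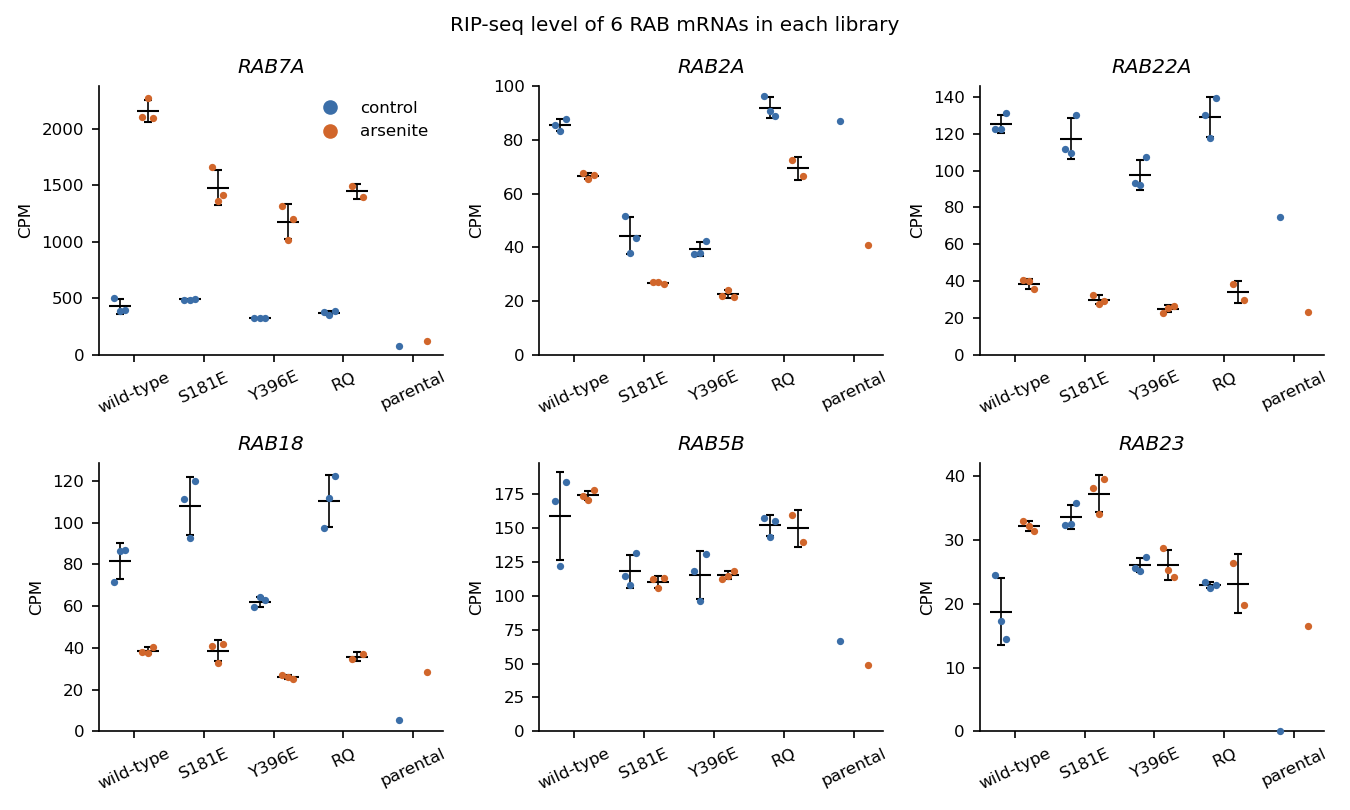
Level in CPM of RAB7A, RAB2A, RAB22A, RAB18, RAB5B and RAB23 in each library, by line, with control in blue and arsenite in orange; each point is a library and bars give mean and SD where n is 2 or 3. RAB2A is low in S181E and Y396E in both treatments, and RAB7A is above 1000 CPM in every arsenite library of the 4 mCherry lines, against 124 CPM in the parental arsenite library.

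The mutants were then compared with wild-type within each treatment, to ask whether changes in the linkers alter which RAB mRNAs come down with IGF2BP1. All mutants share the same wild-type libraries, so their results are given side by side.

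RAB2A was the member lowest against wild-type in both phosphomimetic lines, S181E and Y396E, and in both treatments. The gene (ENSG00000104388.15) lies at chr8:60516936-60623644 of hg38 on the plus strand. In control its level was 85.5, 83.3 and 87.8 CPM in wild-type, 51.6, 38.1 and 43.6 CPM in S181E and 37.6, 37.9 and 42.3 CPM in Y396E. The log2 fold changes were -0.93 (SE 0.11, edgeR adjusted p = 1.51e-06) for S181E and -1.11 (SE 0.11, edgeR adjusted p = 9.46e-08) for Y396E. In arsenite it was 67.7, 65.3 and 66.8 CPM in wild-type, 27.1, 27.0 and 26.2 CPM in S181E and 21.9, 24.3 and 21.4 CPM in Y396E. There the log2 fold changes were -1.32 (SE 0.11, edgeR adjusted p = 1.19e-08) and -1.53 (SE 0.11, edgeR adjusted p = 5.14e-10). The RQ libraries had 96.3, 90.9 and 88.8 CPM in control and 72.5 and 66.5 CPM in arsenite, where its log2 fold change was 0.11 (SE 0.10) and 0.07 (SE 0.12), not called. All 4 calls for RAB2A held under every alternative. The mRNA was at the background level in wild-type control, 0.98-fold of the parental library (87.1 CPM), and in the phosphomimetic lines it was below the parental library, at 0.51-fold for S181E and 0.45-fold for Y396E in control. In arsenite the parental library held 40.8 CPM, with wild-type at 1.63-fold, S181E at 0.66-fold and Y396E at 0.55-fold. RAB2B, its paralog, was not called in any comparison and had 32.3, 31.5 and 32.6 CPM in wild-type control against 30.0, 28.2 and 34.3 CPM in Y396E control.

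For S181E in control 2 RAB mRNAs were lower (5.41%) and 4 higher (10.8%), where 8% of all genes tested were lower and 12.8% higher. Beside RAB2A, RAB5B was called lower, with 114, 108 and 132 CPM against 170, 122 and 184 CPM in wild-type, so that the groups overlapped (log2 fold change -0.42, SE 0.13). The members called higher were RAB23, RAB8B, RAB18 and RAB10. RAB23 had 32.4, 32.6 and 35.9 CPM against 24.6, 17.2 and 14.5 CPM in wild-type (log2 fold change 0.84, SE 0.16, edgeR adjusted p = 0.000607). RAB8B had 52.3, 49.7 and 49.8 CPM against 30.3, 35.8 and 33.8 CPM (log2 fold change 0.62, SE 0.13). RAB18 had 111, 92.7 and 120 CPM against 71.4, 86.3 and 87.1 CPM (log2 fold change 0.42, SE 0.12), and RAB10 had 281, 288 and 296 CPM against 215, 199 and 250 CPM (log2 fold change 0.39, SE 0.09). All 4 lay apart from the wild-type libraries. RAB5B lost its call without wild-type control replicate 1 or 3 or S181E control replicate 1 or 2 (-0.39 to -0.30), and RAB18 lost it without wild-type control replicate 1 (0.33) or S181E control replicate 3 (0.33). RAB23, RAB8B and RAB10 kept their calls when any 1 library was left out, but lost them in a fit of only the groups compared (edgeR adjusted p = 0.0667, 0.0634 and 0.128), and RAB10 also under glmTreat, so that of the 6 calls RAB2A alone held under every alternative. With counts scaled to their totals only, 1 was lower and 12 were higher, with the median of all genes moved to 0.22 and that of the RAB mRNAs to 0.27.

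For Y396E in control 7 were lower (18.9%) and 2 higher (5.41%), where 12.7% of all genes tested were lower and 16.2% higher. The lowest after RAB2A was RAB38, a RAB of lysosome-related organelles, with 11.7, 13.9 and 7.54 CPM against 19.6, 14.2 and 21.0 CPM in wild-type (log2 fold change -0.71, SE 0.23). RAB5B had 118, 96.1 and 131 CPM against 170, 122 and 184 CPM, with overlap (log2 fold change -0.45, SE 0.13). RAB11B, of the recycling endosome and one of the members with a zipcode-like match, had 105, 109 and 120 CPM against 168, 124 and 160 CPM (log2 fold change -0.42, SE 0.11). RAB7A, RAB18 and RAB22A followed with log2 fold changes between -0.38 and -0.34. RAB23 (25.7, 25.2 and 27.4 CPM, log2 fold change 0.48, SE 0.16) and RAB8B (40.8, 42.4 and 50.3 CPM, log2 fold change 0.44, SE 0.13) were called higher, as in S181E. RAB18 was called higher in S181E but lower in Y396E, where it had 59.6, 64.2 and 62.7 CPM.

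Except for RAB2A, no call of Y396E in control held under every alternative. Scaling to total counts gave 1 lower and 13 higher, and background scaling gave 12 lower and none higher (edgeR, with 5 at an unadjusted p under 0.05 and 2 called by DESeq2 under the usual scaling). The first moved the median of all genes to 0.32 and that of the RAB mRNAs to 0.18, the second to -0.12 and -0.26, so that the RAB median was below that of all genes on each scale. Single libraries also decided calls. RAB38 was lost without wild-type control replicate 1 or 3 or Y396E control replicate 3 (-0.65 to -0.51), and RAB5B without Y396E control replicate 2 or wild-type control replicate 3 (-0.35 and -0.33). RAB7A was lost without wild-type control replicate 1 (-0.24), and RAB8B without that library (0.37) or Y396E control replicate 3 (0.33). RAB18 was lost without Y396E control replicate 1 or wild-type control replicate 2 or 3 (-0.36 to -0.33), RAB22A without Y396E control replicate 1 or 2 or wild-type control replicate 3 (-0.33 to -0.31), and RAB23 without any of the 3 Y396E control libraries or wild-type control replicate 2 or 3 (0.32 to 0.49).

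For RQ in control 1 was lower (RAB8A) and 1 higher (RAB18), where 2.83% of all genes tested were lower and 3.51% higher. RAB8A had 480, 442 and 521 CPM against 637, 536 and 671 CPM in wild-type (log2 fold change -0.35, SE 0.10, edgeR adjusted p = 0.0397). RAB18 had 97.2, 112 and 122 CPM against 71.4, 86.3 and 87.1 CPM (log2 fold change 0.44, SE 0.12, edgeR adjusted p = 0.0285). Neither overlapped with wild-type, but RAB8A was lost without wild-type control replicate 1 or 3 or RQ control replicate 1 or 2 (-0.36 to -0.29), and RAB18 without wild-type control replicate 1 or RQ control replicate 2 or 3 (0.35 to 0.43). Scaling to total counts gave none lower and 3 higher (edgeR, with 4 lower at an unadjusted p under 0.05 and 1 lower by DESeq2 under the usual scaling).

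In arsenite all RAB calls against wild-type were lower. For S181E they were 5 (13.5%), where 5.34% of all genes tested were lower and 2.2% higher. None was higher by edgeR or by DESeq2, also not at an unadjusted p under 0.05. After RAB2A came RAB5B, with 112, 105 and 113 CPM against 173, 171 and 178 CPM in wild-type (log2 fold change -0.66, SE 0.13, edgeR adjusted p = 0.00127). RAB7A had 1659.9, 1363 and 1418 CPM against 2106, 2270.4 and 2093 CPM (log2 fold change -0.55, SE 0.11, edgeR adjusted p = 0.00185). RAB11B had 144, 135 and 122 CPM against 193, 181.2 and 166 CPM (log2 fold change -0.44, SE 0.11). These groups did not overlap. RAB22A was the last, with a log2 fold change of -0.37 (SE 0.11, edgeR adjusted p = 0.0465). Over the parental library, S181E arsenite had RAB7A at 11.9-fold, RAB11B at 2.36-fold, RAB5B at 2.26-fold and RAB22A at 1.28-fold, the last near background. RAB2A and RAB5B held under every alternative, and RAB7A under all but glmTreat. RAB11B was lost without wild-type arsenite replicate 1 or S181E arsenite replicate 2 or 3 (-0.44 to -0.37), and RAB22A without wild-type arsenite replicate 1 or 2 or S181E arsenite replicate 2 or 3 (-0.36 to -0.32). With the replicate number as a block the same count of 5 was called lower. Scaling to total counts called 3 lower.

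Y396E in arsenite had the most RAB calls of the 6 comparisons, 11 lower (29.7%) and none higher, where 19.4% of all genes tested were lower and 13.1% higher. One member was higher at an unadjusted p under 0.05, and DESeq2 called 1 higher. RAB7A came after RAB2A, with 1319, 1016 and 1201 CPM against 2106, 2270.4 and 2093 CPM in wild-type (log2 fold change -0.84, SE 0.11, edgeR adjusted p = 4.07e-06), still 9.49-fold over the parental library. RAB38 had 12.1, 15.1 and 13.4 CPM against 26.4, 25.0 and 21.2 CPM (log2 fold change -0.81, SE 0.23, edgeR adjusted p = 0.00843). RAB6A had 161, 162 and 165 CPM against 277, 247 and 261 CPM (log2 fold change -0.66, SE 0.12, edgeR adjusted p = 0.000242). All 3 groups lay apart from wild-type. The other 7 were RAB5A, RAB22A, RAB5B, RAB18, RAB11B, RAB4A and RAB21, with log2 fold changes from -0.64 to -0.30. Of the 11 members called, RAB7A alone was at least 4-fold over the parental library in Y396E arsenite. There RAB18, RAB5A, RAB21, RAB22A, RAB4A and RAB38 were near background, at 0.91- to 1.32-fold, and in wild-type arsenite at 1.26- to 2.36-fold. RAB6A, RAB11B and RAB5B were at 2.06- to 2.36-fold in Y396E arsenite. For members near background, a lower level cannot be read as a loss of binding. By site, 5 of 7 early endosomal, 3 of 7 ER and Golgi, 2 of 4 late endosomal, 1 of 8 recycling members were lower. None of the 6 secretory members or of the 5 with cilium and other roles was called by edgeR, with 1 in each at an unadjusted p under 0.05. The median log2 fold change of the RAB mRNAs was -0.16, and that of all genes was 0.01. RAB4A was lost without wild-type arsenite replicate 1 or 2 or Y396E arsenite replicate 1 or 2 (-0.36 to -0.29), and RAB21 without wild-type arsenite replicate 2 or 3 or Y396E arsenite replicate 3 (-0.30 to -0.23), while the other 9 held under every alternative. Background scaling called 20 lower, with the median of all genes at -0.29 and that of the RAB mRNAs at -0.45, and scaling to total counts called 9 lower and 2 higher, with those medians at 0.23 and 0.07. Of the 111 RAB partners tested, 23 were lower (20.7%) and 14 higher (12.6%) in this comparison, near the 19.4% and 13.1% of all genes. As a description, 11 were lower and 1 higher of 32 GAPs and 5 lower and 10 higher of 37 effectors. In the other lists 6 were lower and 1 higher of 35 GEFs, and 1 lower and 2 higher of 7 in the membrane cycle.

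For RQ in arsenite, with 2 libraries, RAB7A was the one member called lower, and none was called higher, also by DESeq2 or at an unadjusted p under 0.05. Of all genes tested 0.218% were lower and 0.286% higher. A fit of only the groups compared called 6 RAB mRNAs lower and 2 higher, and of all genes 548 lower and 474 higher in place of 19 and 25. RAB7A had 1496 and 1401 CPM against 2106, 2270.4 and 2093 CPM in wild-type (log2 fold change -0.57, SE 0.12, edgeR adjusted p = 0.0289). The groups lay apart, but the call was lost without any single library of the 5 compared (-0.62 to -0.52, edgeR adjusted p = 0.0825 to 0.909).

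**Figure D5:**
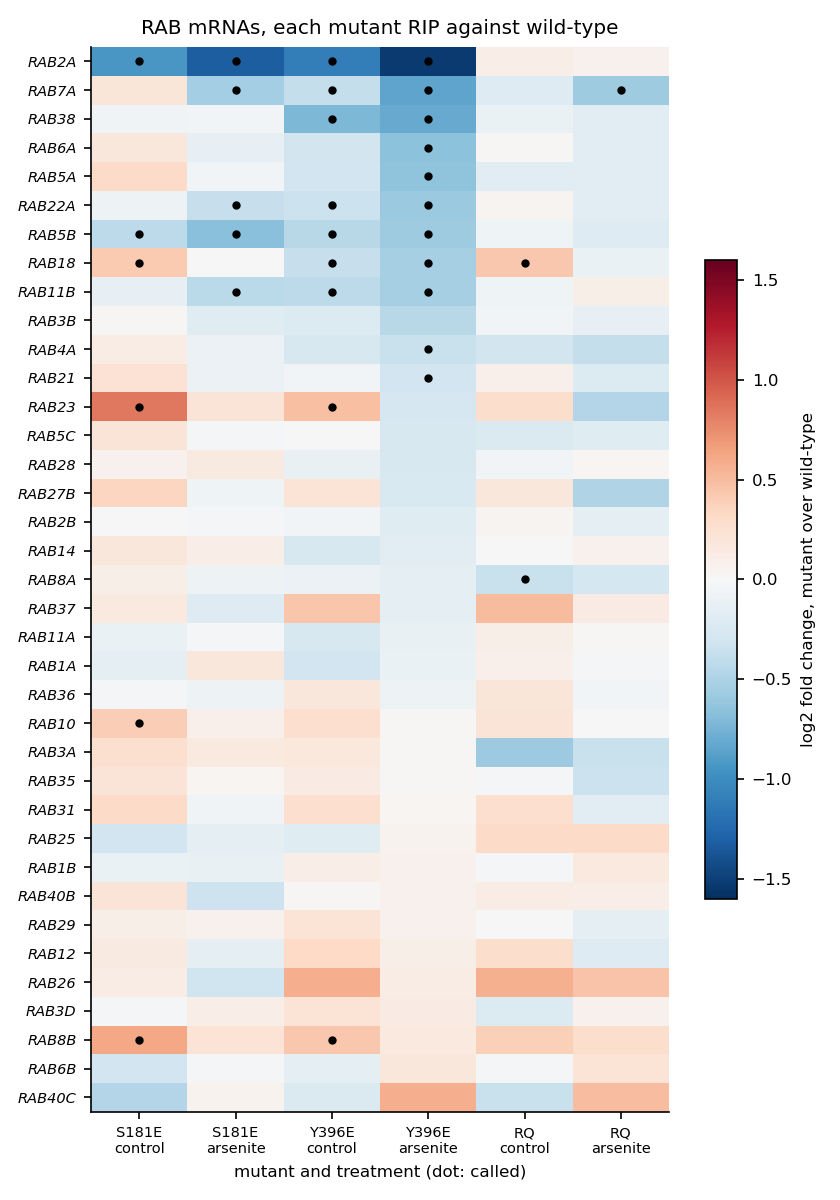
Log2 fold change of each mutant over wild-type (colour, red higher and blue lower) for the 37 tested RAB mRNAs (rows, ordered by Y396E in arsenite) in 6 comparisons (columns, by mutant and treatment). Black dots mark calls; RAB2A is called in the 4 phosphomimetic columns and RAB7A in all 3 arsenite columns.

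RAB7A was thus lower than wild-type in arsenite in all 3 mutants, by 1.46-fold in S181E, 1.79-fold in Y396E and 1.48-fold in RQ, while in control it was called in Y396E alone. Whether its arsenite difference itself depended on the line was tested by an interaction term. For S181E the arsenite difference of RAB7A was smaller than in wild-type by a log2 value of -0.75 (SE 0.15, edgeR adjusted p = 0.0333). It was the 1 RAB mRNA called, where 0.275% of all genes tested were called lower. For Y396E the value was -0.46 (SE 0.15, edgeR adjusted p = 0.103) and for RQ -0.36, neither of them called. No RAB mRNA was called in the interaction of Y396E, where 2.4% of all genes tested were called lower, or of RQ, where 0.0114% were. By edgeR 6 members had an unadjusted p under 0.05 for Y396E and 4 for RQ, and DESeq2 called 1 and 0. The lowest value for Y396E was that of RAB23, -0.75 (SE 0.22, edgeR adjusted p = 0.0647), whose level was 26.1 ± 1.13 CPM in control and 26.1 ± 2.32 CPM in arsenite (SD, n = 3 each) in that line, against 18.8 ± 5.23 CPM and 32.2 ± 0.78 CPM (SD, n = 3 each) in wild-type.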

How the data were processed

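RIP-seq libraries were analysed from the values the authors deposited, raw counts per gene for 63086 genes, not normalized. Per the submitters' processing notes and the methods, reads were demultiplexed with bcl2fastq 2.20.0.422, checked with FastQC 0.11.9, aligned to hg38 with STAR 2.7.11b and counted by strand on exons with featureCounts of Subread 2.0.6, whose default skips multi-mapping reads. Symbols and biotypes came from GENCODE v44 by identifier, with 62541 found and 545 not found.

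The RAB genes and the gene lists were chosen with earlier results of these data known. TMM scaling, CPM and quasi-likelihood tests were computed with edgeR 4.0.16 in R 4.3.3, in 1 model of 8 groups over the 23 mCherry libraries, for protein-coding genes above 10 CPM in at least 11.5 libraries (8734 genes). Parental libraries entered no test, and printed CPM come from factors over all 25 libraries. Where a parental count was 0 the ratio is a bound against 3 counts. Alternatives used DESeq2 1.42.0 size factors and Wald test, total counts, background scaling (factors from 1532 genes no higher than in the parental libraries), glmTreat at 20%, other filters, fewer groups, a replicate block and each library left out. The procedure was tried on simulated data for 3 comparisons. Simulated log2 changes of 0.5 were called in 30.8 to 41.8% of cases, changes of 1 in 87.7 to 95.4% and changes of 2 in 100%. A real change near 0.5 can thus go without a call. Far fewer genes were changed in the simulation than were called between treatments. The rule named, of the called RAB genes, the 8 lowest and highest in wild-type arsenite, the 4 lowest and highest for each mutant and 3 for each interaction, and the 6 highest levels per kb; other called members are named to account for them all, after their values were seen. No pair of libraries held identical counts.

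Replicate numbers are shared between groups. For S181E against wild-type in arsenite the deviations of same-numbered libraries from their group means correlated at 0.28, 0.29 and 0.39, which was taken as pairing. They correlated at 0.14 and 0.21 for RQ and at 0.09 to 0.21 for Y396E in arsenite. In the control comparisons of the mutants they correlated at -0.02 to 0.09 for replicate 1 and at 0.22 to 0.34 for replicates 2 and 3. The main test used no block in any comparison. The labels and methods describe no shared batch. Python 3.11.15 with pandas 2.3.3 was used for tables, and matplotlib 3.10.9 for plots.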

Additional observations from a re-analysis of the deposited data

Results flagged for a closer look

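The arsenite difference of RAB7A differed between the S181E and the wild-type line in the interaction test, by a log2 value of -0.75 (edgeR adjusted p = 0.0333). Mean levels went from 430.1 ± 65.4 to 2157 ± 98.9 CPM in wild-type (SD, n = 3 each) and from 491 ± 6.13 to 1480.4 ± 158 CPM in S181E (SD, n = 3 each). The call was lost in 11 of 21 alternatives, with values from -0.88 to -0.68 over all of them. Those 11 were background scaling (-0.82), glmTreat, a model of only the groups compared (-0.69) and 8 of the 12 fits that left out 1 library, namely S181E control replicate 1 or 3, wild-type control replicate 2, S181E arsenite replicate 2 or 3, or any wild-type arsenite library (-0.77 to -0.68). The direction was the same in all of them.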

How the results depend on the processing

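Over 55 called results on single RAB mRNAs and 830 alternatives, 697 alternatives kept the call, 133 lost it and 0 changed direction. Of 252 comparisons of a RAB count or median under another setting 187 stayed close to the reported value and 65 moved, and so did 44 of 199 that left out 1 library. The causes were not tested except where stated.

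Scaling to total counts gave these values. In S181E control it called 1 lower and 12 higher (median log2 fold change 0.27), in Y396E control 1 and 13 (0.18) and in RQ control 0 and 3 (0.12). In arsenite it called 3 lower for S181E (0.10), 2 higher for Y396E (0.065) and 0 lower for RQ (-0.054), and 3 in the interaction of Y396E. Background scaling moved the median to -0.57 for wild-type arsenite against control. In control it called 1 lower for S181E, 12 lower and 0 higher for Y396E (median -0.26) and 0 and 0 for RQ. In arsenite the median was -0.16 for S181E and -0.45 for Y396E, with 20 lower for Y396E, and RQ had 0 lower. In the interactions it called 0 for S181E and 1 for Y396E.

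A test against a change of 20% (glmTreat), which is stricter by construction, called 1 lower and 2 higher in S181E control, 1 and 0 in Y396E control, 0 and 0 in RQ control, 2 lower in S181E arsenite, 0 in RQ arsenite and 0 in the interaction of S181E. DESeq2's Wald test called 1 higher in Y396E arsenite and 1 in the interaction of Y396E. Fits of only the groups compared called 1 lower and 0 higher in S181E control, 1 and 0 in Y396E control, 0 and 0 in RQ control, 1 higher in Y396E arsenite, 6 lower and 2 higher in RQ arsenite (548 and 474 of all 8734 genes) and 0 in the interaction of S181E. Looser filters, which add weakly counted RAB genes, moved the median of wild-type arsenite against control to -0.091 (filterByExpr) and -0.047 (no filter), gave 0 lower and 2 higher in RQ control under both, and moved the median of RQ arsenite to -0.083 without a filter.

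With the replicate number as a block, 5 were higher in Y396E control, 3 higher in RQ control and 2 lower in the interaction of Y396E (RAB7A at -0.47 and RAB23 at -0.77), and the median of RQ arsenite was -0.089. Pairing was accepted for S181E in arsenite alone, where the block changed no RAB call. Elsewhere same-numbered libraries correlated at -0.02 to 0.34, which was not taken as pairing. That range overlaps with the 0.28 to 0.39 of S181E in arsenite, so the line drawn between them was a choice. In RQ control the block called 484 of all genes tested lower and 597 higher, in place of 247 and 307.

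With each library left out in turn, the counts lower were 1 to 2 in S181E control, 3 to 7 in Y396E control, 0 to 2 in RQ control, 3 to 5 in S181E arsenite, 0 to 0 in RQ arsenite, and in the interactions 0 to 2 for S181E, 0 to 3 for Y396E and 0 to 1 for RQ. The counts higher were 0 to 4 in Y396E control and 0 to 2 in RQ control. Without wild-type control replicate 1, RAB23 was called in all 3 interactions (-0.89 for S181E, -1.01 for Y396E and -1.01 for RQ). Medians ran from -0.30 to -0.19 for wild-type arsenite against control, 0.0040 to 0.16 in S181E control, -0.036 to 0.058 in RQ control, -0.091 to -0.016 in S181E arsenite, -0.21 to -0.13 in Y396E arsenite and -0.15 to -0.052 in RQ arsenite.

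Against the parental libraries, 6 RAB mRNAs were 4-fold higher in wild-type control when the arsenite parental library was used. In wild-type arsenite 15 were 2-fold, 2 were 8-fold and, with total counts, 3 were 4-fold higher. The control parental library was the shallowest, so ratios against it are the least precise.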
